A study of Mus musculus with 14 samples.

Results

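The transcripts described are those of 5 lysosomal proteins, Lamp1, Ctsl, Ctsa, Psap and Gaa, and of Fnip2, a partner of the lysosomal nutrient sensor folliculin. They were chosen by gene name, which gave 6 genes, with 1 listed transcript each, of 1385 genes with a symbol in the count tables. Polyadenylated RNA was sequenced from wild-type (WT) mouse embryonic fibroblasts, a cultured connective tissue cell (MEF cells), in 14 libraries that formed 7 groups of 2. In the first experiment cells were kept under cysteine starvation, under full amino acid starvation, or without treatment (NT). In the second they were transfected with a short hairpin RNA against CTNS together with a CTNS plasmid (CTNS rescue), transfected with the hairpin alone (CTNS knockdown), treated with cysteamine, or left without treatment (NT2). CTNS encodes cystinosin, the exporter of cystine in the lysosomal membrane, and cysteamine is a drug that clears lysosomal cystine. All groups shared the WT genotype. The labels did not say which untreated group belonged to which treatments: the columns of NT and of both starvations share a prefix that the other 4 groups lack, and NT was set against the starvations and NT2 against the rest on that ground. NT2 cells were untreated, so the hairpin and the act of transfection cannot be told apart in a comparison with NT2. The rescue cells carried the same hairpin.

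The lysosome is an acidic compartment in which hydrolases break down protein, lipid and glycogen, and its surface is also where the kinase complex mTORC1 reads the supply of amino acids. The folliculin complex, which contains Fnip1 or Fnip2, acts there on the Rag GTPases and through them on TFEB and TFE3, transcription factors that bind E-box sequences in the promoters of many lysosomal genes. Loss of cystinosin leaves cystine trapped in the lysosome.

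The counts covered 1399 transcripts, the same in every library and each with at least 1 count. The libraries of the first experiment held 25697 to 51224 counts and those of the second 64530 to 165747. The 6 transcripts together took 0.0552% to 0.209% of a library's counts in the first experiment but 0.314% to 0.471% in the second. Levels below are CPM, counts relative to a common library total, after trimmed mean of M values (TMM) scaling, which sets each library against the bulk of its transcripts. A transcript was called higher or lower where the Benjamini-Hochberg adjusted p of edgeR's quasi-likelihood test, over all 1399 transcripts, was under 0.05. Fold changes are on the log2 scale with their standard error (SE), and an interval is the 95% interval. Nothing in the labels tells whether a group's 2 libraries are separate cultures. The p-values rest on the spread between libraries within groups, pooled over the 7 groups and drawn toward that of other transcripts. That spread may be technical. The 3 transcripts with the most counts, Luc7l2, Pigl and Pglyrp3, held 20.5% to 54.5% of the counts in the first experiment, and in the second 18.6% to 21.1% in CTNS rescue, 15.8% and 16% in CTNS knockdown, 7.72% and 7.98% with cysteamine and 3.29% and 3.49% in NT2. A class of 341 transcripts, called tracking transcripts here, was defined with the counts in view. Counts were taken relative to those 3 transcripts, and members had a ratio of NT to NT2 above 2 times the median ratio. The class held 63.8% and 86.7% of the counts in NT and 9.34% and 9.52% in NT2. Fnip2 belonged to it, with a ratio 3.66 times the median, while the ratios of the other 5 genes were 0.307 to 1.02 times the median. The Ctns transcript was not analysed here, so the knockdown itself was not checked.

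Promoter windows of 300 bases, 250 before and 50 after an annotated start site, were taken from RefSeq on the mouse build GRCm38.p6, and all 6 genes had at least 1 window (8 windows in all). Those of Lamp1, Ctsl and Fnip2 are shown because Lamp1 had the most E-boxes of the 6 genes, and Ctsl and Fnip2 were the genes called in the second experiment. They lie at chr8:13158911-13159210 on the plus strand (Lamp1), chr13:64370471-64370770 on the minus strand (Ctsl) and chr3:79567630-79567929 on the minus strand (Fnip2). They are written 5′ to 3′, and capitals mark the palindromic E-box CACGTG.
Lamp1: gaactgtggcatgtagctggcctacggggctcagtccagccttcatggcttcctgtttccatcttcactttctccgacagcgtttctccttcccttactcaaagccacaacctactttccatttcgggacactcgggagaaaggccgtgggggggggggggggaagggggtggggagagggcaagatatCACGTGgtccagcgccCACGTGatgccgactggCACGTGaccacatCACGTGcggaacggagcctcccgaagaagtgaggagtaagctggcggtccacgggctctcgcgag
Ctsl: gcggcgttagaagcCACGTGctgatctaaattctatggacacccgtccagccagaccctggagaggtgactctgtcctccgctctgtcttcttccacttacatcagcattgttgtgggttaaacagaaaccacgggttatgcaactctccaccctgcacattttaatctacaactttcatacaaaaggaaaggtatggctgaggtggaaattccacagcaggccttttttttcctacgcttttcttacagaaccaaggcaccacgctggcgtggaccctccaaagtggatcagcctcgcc
Fnip2: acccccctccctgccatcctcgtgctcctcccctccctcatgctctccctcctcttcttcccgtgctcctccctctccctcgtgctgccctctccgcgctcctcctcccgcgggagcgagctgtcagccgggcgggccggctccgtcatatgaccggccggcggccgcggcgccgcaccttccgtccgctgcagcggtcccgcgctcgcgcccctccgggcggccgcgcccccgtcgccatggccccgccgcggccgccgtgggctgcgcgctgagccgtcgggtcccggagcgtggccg
The Lamp1 window held 4 E-boxes, which began 61, 45, 28 and 15 bases before the start site. Ctsl had 1, which began 236 bases before its start site, Gaa had 1 at 140 bases before, and Fnip2 and both Psap windows had 0. Of the 2 windows of Ctsa, 1 had 2 E-boxes, beginning 12 bases before and 6 bases after its start site, and the other had 0. Over 32851 RefSeq promoter windows 7.15% held CACGTG and 0.0244% held it 4 times or more, and among 1358 windows of listed genes 10.5% held it. The longer TCACGTG, which overlaps CACGTG and was read on both strands, occurred 4 times in Lamp1, 4 times in that Ctsa window and 1 time in Gaa, and 3.77% of all windows held it. In Lamp1 each of the 4 E-boxes had 1 match, whereas in Ctsa each of the 2 E-boxes matched on both strands. TGATGNAA, the element bound by ATF4 with its C/EBP partners, was found on either strand in the Ctsl window alone among the 8, 153 bases before the start site, and in 3.97% of all windows. The listed transcript began at the window's start site for Lamp1 and for 1 Psap window, 76 bases upstream of it for Gaa, 117 bases for Fnip2 and 370 bases for Ctsl. The counted Ctsl transcript thus began outside its window, which reaches 250 bases upstream. The E-box and the TGATGNAA of the Ctsl window lay downstream of that transcript's start. The Ctsa transcript began 29 bases downstream of the start site of the window without an E-box and 872 bases upstream of the other. These matches are descriptions of letters and say nothing of binding.

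**Figure D1:**
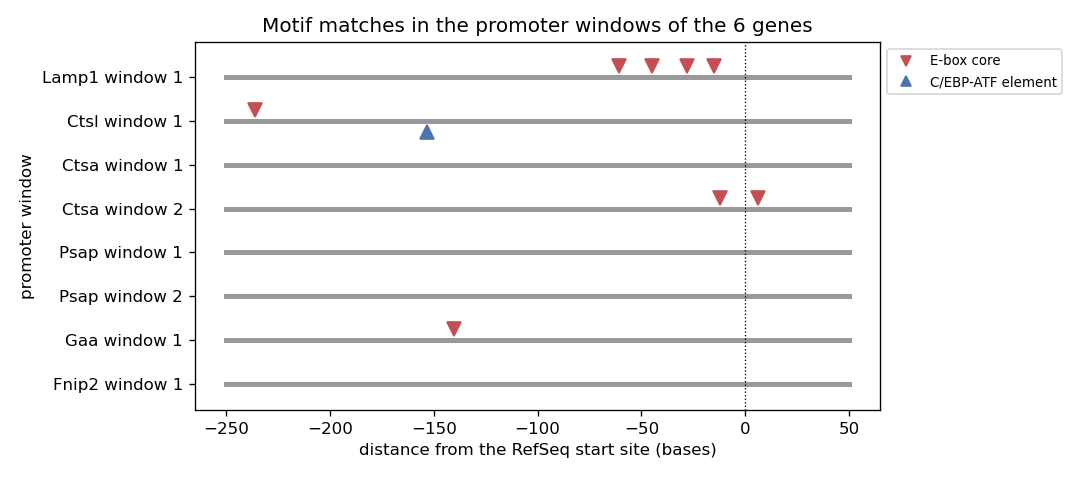
Positions of CACGTG (E-box core) and TGATGNAA (C/EBP-ATF element) in the 8 promoter windows of the 6 genes, in bases from the annotated start site (x axis), with 1 line per window. The Lamp1 window holds 4 E-boxes within 61 bases of the start site, and the Fnip2 and Psap windows hold 0.

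Per kilobase of transcript, the 5 lysosomal transcripts stood above Fnip2 in NT2. Lamp1, the heavily glycosylated protein that lines the lysosomal membrane, averaged 633 CPM per kilobase. Psap, the precursor of the saposins that help enzymes degrade sphingolipids, averaged 144, and Gaa, the acid alpha-glucosidase that degrades glycogen, 105. Ctsa, a serine carboxypeptidase that also protects lysosomal galactosidase and neuraminidase, averaged 86.9, and Ctsl, the cysteine protease cathepsin L, 64.1 CPM per kilobase. Fnip2 averaged 12 CPM per kilobase. The order was not the same in NT, where Fnip2 averaged 39.8 CPM per kilobase, above Psap at 38.7 and below the others. Those NT values came from 11 counts of Fnip2 and 4 of Psap. The transcripts counted were Lamp1-201 (ENSMUST00000033824, 2229 nucleotides in 9 exons), Psap-205 (ENSMUST00000179238, 2657 nucleotides in 15 exons) and Gaa-203 (ENSMUST00000106259, 3633 nucleotides in 20 exons). The others were Ctsa-201 (ENSMUST00000103092, 3646 nucleotides in 16 exons), Ctsl-205 (ENSMUST00000222517, 6168 nucleotides in 9 exons) and Fnip2-203 (ENSMUST00000133154, 7299 nucleotides in 18 exons). All are protein coding in GENCODE M21, and each gene has between 2 and 16 annotated transcripts there. Other isoforms were not analysed here, and how reads shared by isoforms were assigned is not given in the sources used here. The order per kilobase depends on these lengths. In CPM, without division by length, Ctsl (395) came next after Lamp1 (1411) in NT2.

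The untreated groups NT and NT2 stood far apart, so levels set across the experiments do not order the treatments. Lamp1 had 430 and 294 CPM in NT but 1346 and 1476 CPM in NT2, and Fnip2 had 287 and 294 CPM in NT but 83.1 and 92.0 CPM in NT2. On the TMM scale NT was thus the lowest group for Lamp1 and the highest for Fnip2, and NT2 the reverse. Fnip2 had 8 of 33990 and 3 of 25697 counts in NT, and 21 of 165747 and 19 of 132998 in NT2. The TMM factors were 0.821 and 0.397 in NT and 1.52 and 1.55 in NT2. By library totals alone the Fnip2 libraries of NT and NT2 would overlap, so its order of groups depends on the scaling. In the order of means, Lamp1 ran from NT2 (1411 CPM) through CTNS knockdown (1258), cysteamine (1236) and rescue (1084) to cysteine starvation (614), full amino acid starvation (444) and NT (362). The libraries of neighbouring groups overlapped except between cysteamine and rescue and between rescue and cysteine starvation. Fnip2 ran from NT (290.2 CPM) through full amino acid starvation (190.0), rescue (175), knockdown (163), cysteine starvation (133) and cysteamine (101) to NT2 (87.6). Only NT was separate from its neighbour in that order, since every later neighbouring pair overlapped. For Ctsl, NT2 and cysteamine (395 CPM each) overlapped each other and stood above all 5 other groups, whose means lay between 312 CPM in full amino acid starvation and 243 CPM in the knockdown and whose neighbours all overlapped. For Psap the 4 groups of the second experiment lay at 368 to 427 CPM with overlapping neighbours, above cysteine starvation (212 CPM), which was in turn above NT (103) and full amino acid starvation (100.0). Gaa was highest in the knockdown (498 CPM), separate from NT2 (381), which was separate from rescue (359.7), and the remaining 4 groups followed with overlapping neighbours, cysteamine first (349) and full amino acid starvation last (256). For Ctsa all neighbours overlapped, from the knockdown (369.6 CPM) to cysteine starvation (174).

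**Figure D2:**
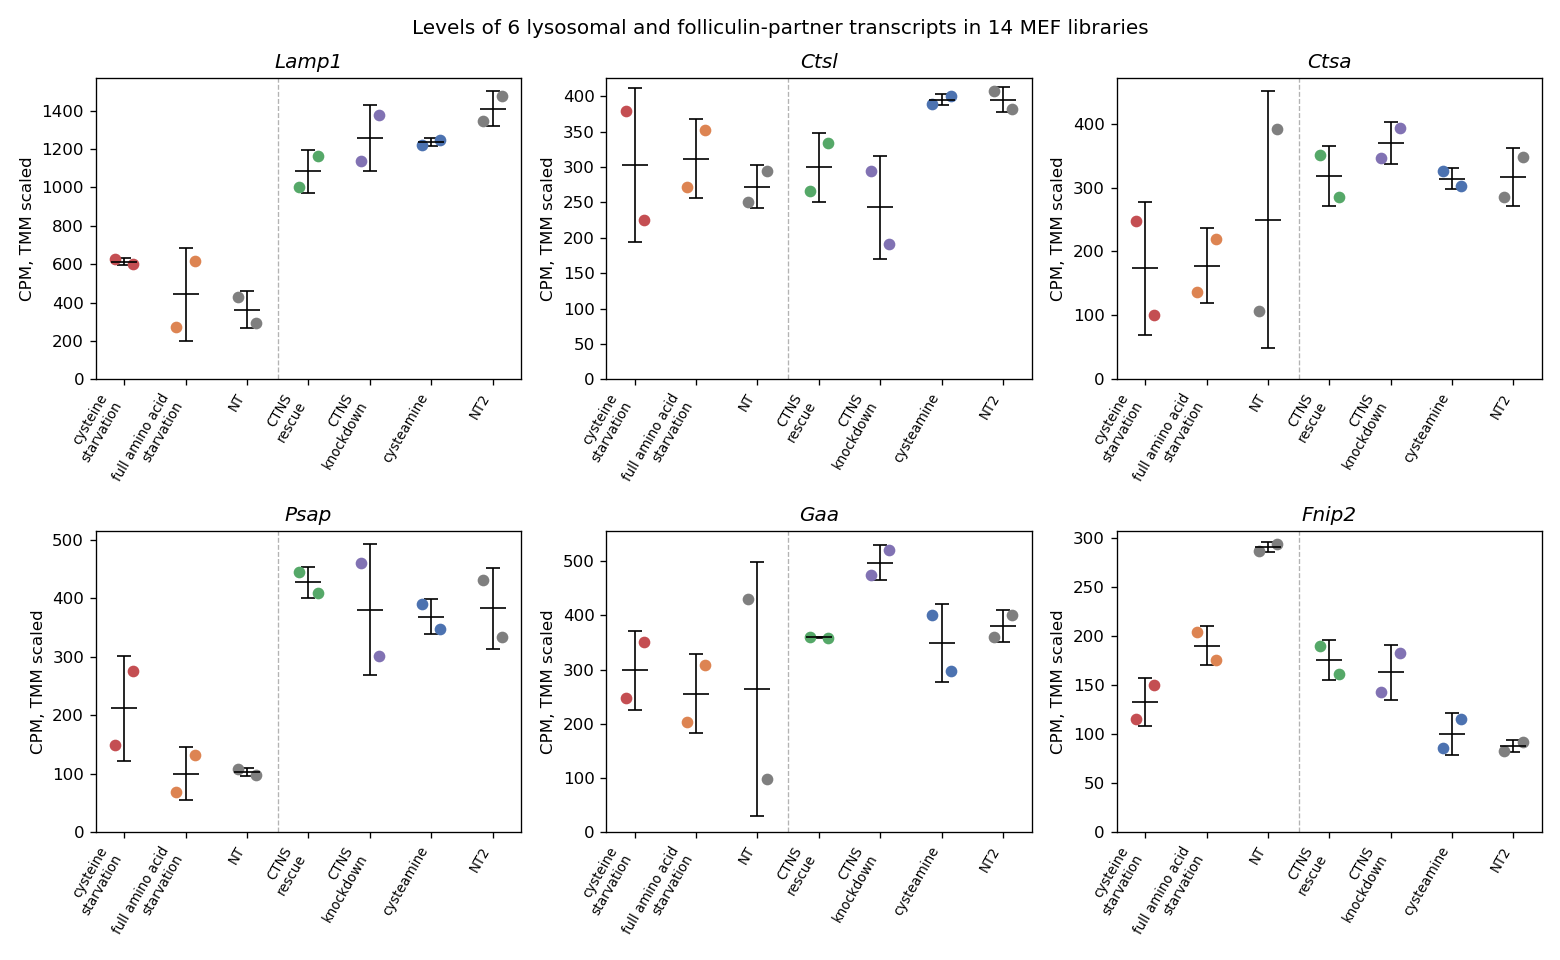
Level of each of the 6 transcripts in every library, in TMM-scaled CPM (y axis, from 0), with the mean of each group as a line and its SD over 2 libraries as error bars, and a dashed line between the first and the second experiment. Lamp1 and Psap sit higher in the second experiment. On this TMM scale Fnip2 sits highest in NT, where it has 8 and 3 counts, and lowest in NT2.

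CTNS knockdown against NT2 asks how cells with the hairpin against the cystine exporter differ from untreated cells. Ctsl fell to 0.624 of its NT2 level and Fnip2 rose 1.84-fold, so 2 of the 6 transcripts were called, while 30.8% of all 1399 were called in this comparison (17.6% higher and 13.2% lower). Lamp1, Ctsa, Psap and Gaa did not pass the test. The share of the 6 that was called was close to that of all transcripts.

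Ctsl had 294 and 192 CPM in CTNS knockdown, from 39 and 21 counts, against 408 and 382 CPM in NT2, from 103 and 79 counts. Both knockdown libraries were below both NT2 libraries, and replicate 2 of the knockdown was the lower. The log2 fold change was -0.68 ± 0.23 (SE; interval -1.17 to -0.19, adjusted p = 0.0312, edgeR). Without knockdown replicate 2 the change was -0.43 with an adjusted p of 0.277, without NT2 replicate 1 the adjusted p was 0.153, and without NT2 replicate 2 it was 0.0830. With DESeq2 it was 0.0869, and over all alternatives it ranged from 0.00881 to 0.454. As a share of the Lamp1 counts of the same library, a measure that needs no scaling, Ctsl stood at 25.8% and 13.9% in the knockdown and at 30.3% and 25.9% in NT2. The higher knockdown value and the lower NT2 value lay next to each other.

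Fnip2 had 143 and 183 CPM in CTNS knockdown, from 19 and 20 counts, against 83.1 and 92.0 CPM in NT2, from 21 and 19 counts. Both knockdown libraries were above both NT2 libraries. The log2 fold change was 0.88 ± 0.31 (interval 0.22 to 1.54, adjusted p = 0.0392, edgeR). The call was lost when any 1 of the 4 libraries was left out (adjusted p 0.0667 to 0.220), with DESeq2 (0.0578), with library totals as the only scaling (0.152) and in a fit of the second experiment alone (0.0654). Over all alternatives the adjusted p ranged from 0.0311 to 0.972, the highest with both untreated groups as control. Relative to Lamp1, Fnip2 stood at 12.6% and 13.2% in the knockdown and at 6.18% and 6.23% in NT2, without overlap. This measure was chosen after seeing the data and reuses the same Fnip2 counts. Lamp1 had a ratio of NT to NT2 of 0.313 times the median, against 3.66 times for Fnip2, so it gives no separate support. The tracking transcripts, to which Fnip2 belongs, had a median log2 fold change of 1.32 here, against -0.12 for the other transcripts, with 169 called higher and 0 lower. NT2 entered the definition of that class, so a rise against NT2 is favoured by it, and its part in the Fnip2 result was not tested.

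Gaa had 475 and 521 CPM in the knockdown and 360.3 and 402 CPM in NT2, with both knockdown libraries higher. Its log2 fold change of 0.38 ± 0.22 did not pass (interval -0.07 to 0.84, adjusted p = 0.188). It passed when the tracking transcripts were left out of the fit, at 0.51 with an adjusted p of 0.0336 (range over all alternatives 0.0336 to 0.623). Lamp1 had 1137 and 1379 CPM in the knockdown and 1346 and 1476 CPM in NT2, and these overlapped (log2 fold change -0.17, interval -0.60 to 0.26). Ctsa had 346 and 393 CPM in the knockdown and 285 and 349 CPM in NT2, also overlapping (0.22, interval -0.30 to 0.75). Psap had 459 and 301 CPM in the knockdown and 432 and 334 CPM in NT2, and its interval of -0.48 to 0.48 bounds a change in either direction. The median log2 fold change of the 6 genes was 0.11, beside 0.092 over all transcripts.

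Cell type markers differed in the same comparison. The 9 measured of 14 fibroblast markers summed to 11142 and 11148 CPM in the knockdown and to 32825 and 35826 CPM in NT2. Cdh1, an epithelial cadherin gene and the 1 measured of 4 epithelial markers, stood at 54.8 to 90.4 CPM in the knockdown and 3.96 to 24.2 CPM in NT2. Ttn, the 1 measured of 4 muscle markers, stood at 411 to 459 CPM in the knockdown and 99.0 to 194 CPM in NT2. Of 10 macrophage markers and 3 endothelial markers 0 could be analysed here. In NT, Ttn stood at 686 to 716 CPM and Cdh1 at 143 to 294 CPM, so both were also higher there than in NT2. By the rule given above, Ttn and Cdh1 are tracking transcripts, as Fnip2 is. A rise of either against NT2 is therefore favoured by that definition, here and in the comparisons below. The Cdh1 values also rest on few counts. A change in cell makeup was not tested, nor was the part of these markers in the Ctsl and Fnip2 results. In bulk RNA fewer cells of a type cannot be told apart from less RNA per cell.

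CTNS rescue against CTNS knockdown asks what the plasmid changed in cells with the hairpin. None of the 6 transcripts was called (0 of 6 also at an unadjusted p under 0.05 and 0 of 6 with DESeq2), in a comparison with 0.643% of all transcripts called by edgeR. Ctsl had 265 and 334 CPM in the rescue and 294 and 192 CPM in the knockdown, with overlapping libraries and a log2 difference of 0.27 ± 0.27 (interval -0.31 to 0.84). Fnip2 had 190 and 161 CPM in the rescue and 143 and 183 CPM in the knockdown, also overlapping (0.13 ± 0.32, interval -0.55 to 0.80). The Ctsl interval includes both no difference and the 0.68 that separated the knockdown from NT2. The Fnip2 interval includes no difference and ends short of -0.88. The 0.88 between knockdown and NT2 had its own interval of 0.22 to 1.54 and used the same knockdown libraries. The mean of Fnip2 was 175 CPM in the rescue and 163 CPM in the knockdown, so it lay no nearer to NT2 (87.6 CPM). Set together, these intervals do not settle whether Fnip2 moved toward NT2. Gaa had 360.2 and 359 CPM in the rescue and 475 and 521 CPM in the knockdown. Both rescue libraries of Gaa were lower, without passing the test (-0.46 ± 0.25, interval -0.99 to 0.07, adjusted p = 0.469). Lamp1 (-0.22), Ctsa (-0.20) and Psap (0.15) overlapped between these groups.

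CTNS rescue against NT2 shares its NT2 libraries with the knockdown comparison, so the values are given side by side and not as a repeat. Fnip2 rose 2.01-fold and was the 1 gene of the 6 called, while 31.5% of all transcripts were called (18.7% higher and 12.9% lower). Its log2 fold change was 1.01 ± 0.32 (interval 0.33 to 1.68, adjusted p = 0.0236), beside 0.88 in the knockdown. The libraries held 190 and 161 CPM in the rescue, from 20 and 13 counts, and 83.1 and 92.0 CPM in NT2, and did not overlap. Leaving out any 1 of the 4 libraries ended the call (adjusted p 0.0579 to 0.201), as did library totals as the only scaling (0.161), whereas DESeq2 kept it (range over all alternatives 0.0196 to 0.83). The median log2 fold change was 1.74 among tracking transcripts and -0.20 among the others, and their part was not tested. Library totals alone would put 43.4% of the calls of this comparison on the higher side, in place of 59.2% with TMM.

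Ctsl had 265 and 334 CPM in the rescue and 408 and 382 CPM in NT2, with both rescue libraries lower, but did not pass (-0.42 ± 0.24, interval -0.91 to 0.08, adjusted p = 0.192). Lamp1 had 1005 and 1164 CPM in the rescue and 1346 and 1476 CPM in NT2, again without overlap and without passing (-0.38 ± 0.21, adjusted p = 0.182). Lamp1 passed in a fit of the second experiment alone, at -0.48 with an adjusted p of 0.0126 (range over all alternatives 0.0126 to 0.499). Gaa was within a narrow band below NT2 in the rescue (360.2 and 359 CPM, against 360.3 and 402 CPM in NT2), with a log2 difference of -0.08 (interval -0.59 to 0.43). Ctsa (0.03) and Psap (0.15) overlapped. Fibroblast markers summed to 18740 and 18956 CPM in the rescue and 32825 and 35826 CPM in NT2. Ttn stood at 569 to 743 CPM in the rescue and 99.0 to 194 CPM in NT2, and Cdh1 at 24.8 to 56.9 CPM in the rescue and 3.96 to 24.2 CPM in NT2. The part of these markers in the Fnip2 result and the other values was not tested.

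**Figure D3:**
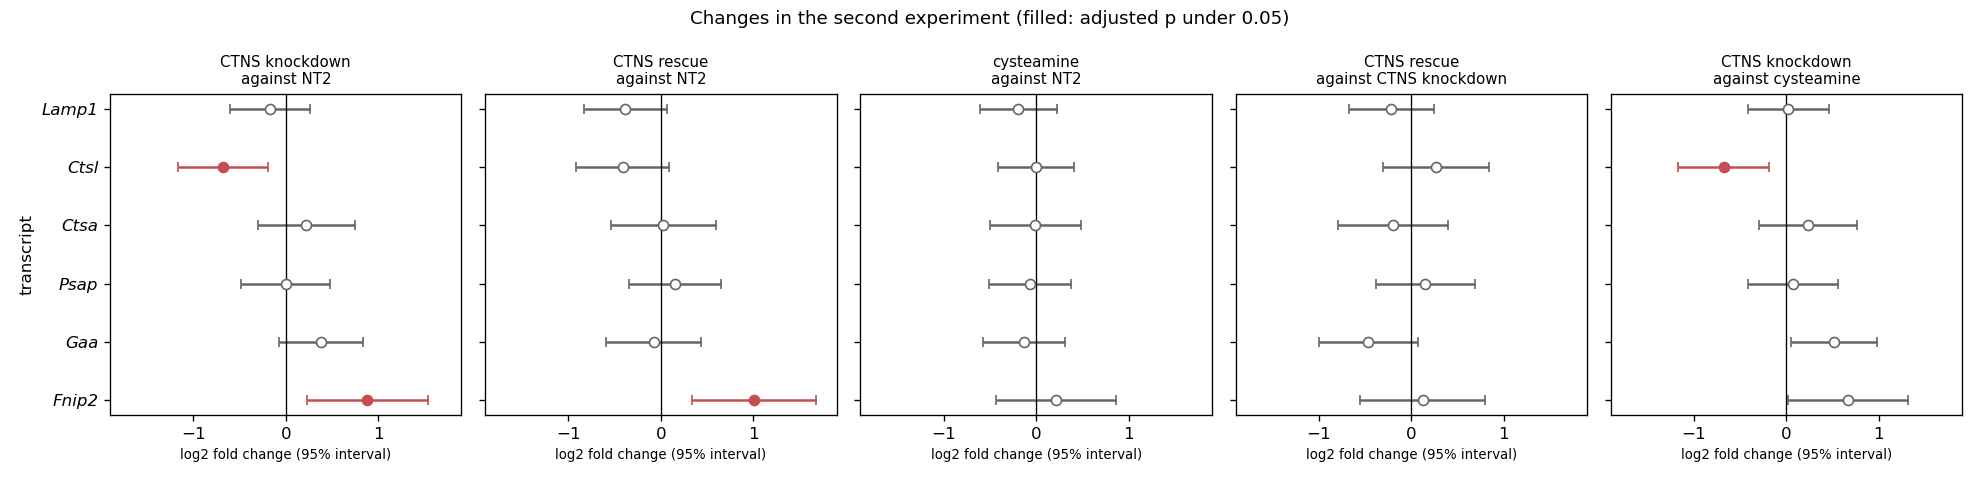
Log2 fold changes of the 6 transcripts in the 5 comparisons of the second experiment, as points with 95% intervals, and filled where the transcript was called at an adjusted p under 0.05 (edgeR). The called points are Ctsl at -0.68 in the knockdown against NT2 and against cysteamine, and Fnip2 at 0.88 in the knockdown and 1.01 in the rescue against NT2.

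Cysteamine against NT2 asks how cells given the drug differ from untreated cells, and cystine levels were not analysed here. None of the 6 transcripts was called by edgeR or DESeq2, and 0 had an unadjusted p under 0.05, while 10.5% of all transcripts were called (5.5% higher and 5% lower). Ctsl had 390 and 400.3 CPM with cysteamine and 408 and 382 CPM in NT2, a log2 difference of -0.0019 ± 0.19 (interval -0.41 to 0.41). Lamp1 had 1222 and 1250 CPM with cysteamine and 1346 and 1476 CPM in NT2. The Lamp1 libraries did not overlap, and the difference of -0.19 ± 0.20 did not pass (interval -0.61 to 0.23, adjusted p = 0.565). Ctsa had 326 and 302 CPM with cysteamine and 285 and 349 CPM in NT2, and Psap had 389.6 and 347 CPM with cysteamine and 432 and 334 CPM in NT2. Gaa had 400.3 and 298 CPM with cysteamine and 360.3 and 402 CPM in NT2, and Fnip2 had 85.4 and 116 CPM with cysteamine and 83.1 and 92.0 CPM in NT2. These 4 genes overlapped between the groups, with log2 differences of -0.01, -0.07, -0.13 and 0.21 in that order. The interval for Fnip2 was -0.44 to 0.86. The median of the 6 log2 differences was -0.04, beside 0.13 over all transcripts. Fibroblast markers summed to 20398 and 20993 CPM with cysteamine and 32825 and 35826 CPM in NT2, and Ttn stood at 218 to 246 CPM and 99.0 to 194 CPM in the same order. Cdh1 overlapped, at 8.90 to 26.7 CPM with cysteamine and 3.96 to 24.2 CPM in NT2. The part of these markers in the values of the 6 genes was not tested. Library totals alone would put 34.4% of the calls of this comparison on the higher side, in place of 52.4% with TMM.

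CTNS knockdown against cysteamine sets cells with a hairpin against the exporter beside cells given the drug known to clear cystine. Ctsl fell, with 294 and 192 CPM in the knockdown and 390 and 400.3 CPM with cysteamine, at 0.625 of the cysteamine level. It was the 1 gene of the 6 called, beside 24.7% of all transcripts (10.1% higher and 14.7% lower). The libraries did not overlap, and the log2 difference was -0.68 ± 0.23 (interval -1.17 to -0.19, adjusted p = 0.0416). The knockdown libraries are those of the comparison with NT2. The call was lost with DESeq2 (adjusted p = 0.0848), with library totals as the only scaling (0.101), with a minimum mean count of 20 (0.0635), and without knockdown replicate 2 (0.306), cysteamine replicate 1 (0.124) or cysteamine replicate 2 (0.162). Its range over all alternatives was 0.0142 to 0.306. As a share of Lamp1 counts, Ctsl stood at 25.8% and 13.9% in the knockdown and at 31.9% and 32.0% with cysteamine. The fibroblast marker sums were 11142 and 11148 CPM in the knockdown and 20398 and 20993 CPM with cysteamine. Ttn stood at 411 to 459 CPM in the knockdown and 218 to 246 CPM with cysteamine, and Cdh1 at 54.8 to 90.4 CPM in the knockdown and 8.90 to 26.7 CPM with cysteamine. The part of these markers in the Ctsl result was not tested.

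Gaa had 475 and 521 CPM in the knockdown and 400.3 and 298 CPM with cysteamine, without overlap. Its difference of 0.52 ± 0.22 had an unadjusted p of 0.0326 and an adjusted p of 0.0964, and it passed with a minimum mean count of 20 (adjusted p = 0.0404) and without the tracking transcripts (0.00875, range over all alternatives 0.00875 to 0.473). Fnip2 had 143 and 183 CPM in the knockdown and 85.4 and 116 CPM with cysteamine, without overlap (0.67 ± 0.31, unadjusted p = 0.0438, adjusted p = 0.12). Ctsa was higher in both knockdown libraries without passing (0.23), and Lamp1 (0.02) and Psap (0.07) overlapped.

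**Figure D4:**
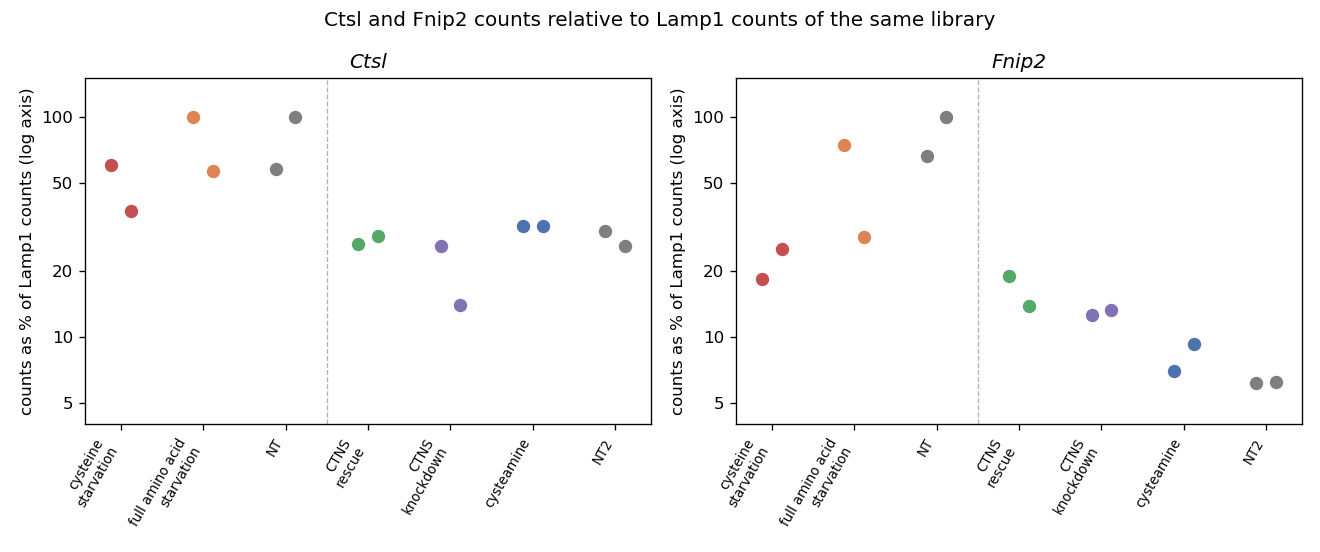
Counts of Ctsl and Fnip2 as a percentage of the Lamp1 counts of the same library (y axis, log scale), with 1 point per library and a dashed line between the first and the second experiment. Fnip2 stands at 12.6% and 13.2% in the knockdown and at 6.18% and 6.23% in NT2, and Ctsl is lowest in knockdown replicate 2, at 13.9%.

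In the starvation experiment the 6 transcripts had 1 to 38 counts in a library, and none was called in any of the 3 comparisons. Cysteine starvation against NT gave 0 of 6 calls among 0% of all transcripts called, with 230 transcripts and 0 of the 6 at an unadjusted p under 0.05. DESeq2 called 60 transcripts and 0 of the 6, but it gave no adjusted p for Fnip2, whose log2 fold change there was -1.20. Full amino acid starvation against NT likewise gave 0 of 6 among 0% called, with 109 transcripts and 0 of the 6 at an unadjusted p under 0.05, and 0 of the 6 with DESeq2. Cysteine starvation against full amino acid starvation gave 0 of 6 among 15% called (2.57% higher and 12.4% lower), with 0 of the 6 at an unadjusted p under 0.05 and 0 with DESeq2.

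Fnip2 held 116 and 150.2 CPM in cysteine starvation, from 7 and 6 counts, 204 and 176 CPM in full amino acid starvation, from 3 and 4 counts, and 287 and 294 CPM in NT, from 8 and 3 counts. On this TMM scale the 3 groups did not overlap, with cysteine starvation lowest and NT highest. The log2 fold change against NT was -1.14 ± 0.48 for cysteine starvation (interval -2.16 to -0.12, unadjusted p of edgeR's quasi-likelihood test 0.0557, adjusted p = 0.322) and -0.62 ± 0.55 for full amino acid starvation (adjusted p = 0.832). The 2 comparisons share the NT libraries. Between the starvations the difference was -0.52 ± 0.54 (interval -1.66 to 0.61). With library totals as the only scaling its direction turned, to 0.51 (adjusted p = 0.52), and the change in cysteine starvation against NT was -0.46, so the order of the starvations depends on the scaling. The tracking transcripts had medians against NT of -1.16 (cysteine starvation) and 0.49 (full amino acid starvation), and NT entered their definition. The share of Fnip2 relative to Lamp1 counts was 18.4% and 25% under cysteine starvation, 75% and 28.6% under full amino acid starvation and 66.7% and 100% in NT.

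Lamp1 had 627 and 601 CPM in cysteine starvation, from 38 and 24 counts, 272 and 616 CPM in full amino acid starvation, from 4 and 14 counts, and 430 and 294 CPM in NT, from 12 and 3 counts. Both cysteine starvation libraries were above both NT libraries, but the log2 fold change of 0.66 ± 0.41 did not pass (interval -0.21 to 1.53, adjusted p = 0.412). Psap had 149 and 275 CPM in cysteine starvation, 68.1 and 132 CPM in full amino acid starvation and 107 and 98.0 CPM in NT, with 1 to 11 counts in a library. Cysteine starvation was again above both other groups without overlap, at 0.93 ± 0.75 against NT and 0.90 ± 0.75 against full amino acid starvation, and neither passed. With library totals as the only scaling, Lamp1 (1.42, adjusted p = 0.0402) and Psap (1.92, adjusted p = 0.0401) passed in cysteine starvation against full amino acid starvation. Over all alternatives the adjusted p ranged from 0.0402 to 0.999 for Lamp1 and from 0.0401 to 0.823 for Psap. Scaling by library totals moved the median of all transcripts by 1.04 in this comparison, and it put 86.5% of the calls on the higher side, in place of 17.1% with TMM.

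Ctsl had 380 and 225 CPM in cysteine starvation, 272 and 352 CPM in full amino acid starvation and 251 and 294 CPM in NT. Ctsa had 248 and 100.1 CPM in cysteine starvation, 136 and 219.8 CPM in full amino acid starvation and 107 and 392 CPM in NT. Gaa had 248 and 350.5 CPM in cysteine starvation, 204 and 308 CPM in full amino acid starvation and 430 and 98.0 CPM in NT. For these 3 genes every pair of groups overlapped, and the 95% intervals of their log2 differences reached from -1.60 at the lowest to 1.61 at the highest. The fibroblast marker sums were 31143 and 34396 CPM in cysteine starvation, 15925 to 24532 CPM in full amino acid starvation and 15969 to 23960 CPM in NT. Ttn stood at 231 to 350 CPM in cysteine starvation, 835 to 1633 CPM in full amino acid starvation and 686 to 716 CPM in NT, and Cdh1 at 25 to 66.0, 176 to 613 and 143 to 294 CPM in the same order. Both were lowest in cysteine starvation, as Fnip2 was on the TMM scale. Ttn, Cdh1 and Fnip2 are all tracking transcripts, and NT entered the definition of that class. The part of these markers in the starvation values was not tested.

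**Figure D5:**
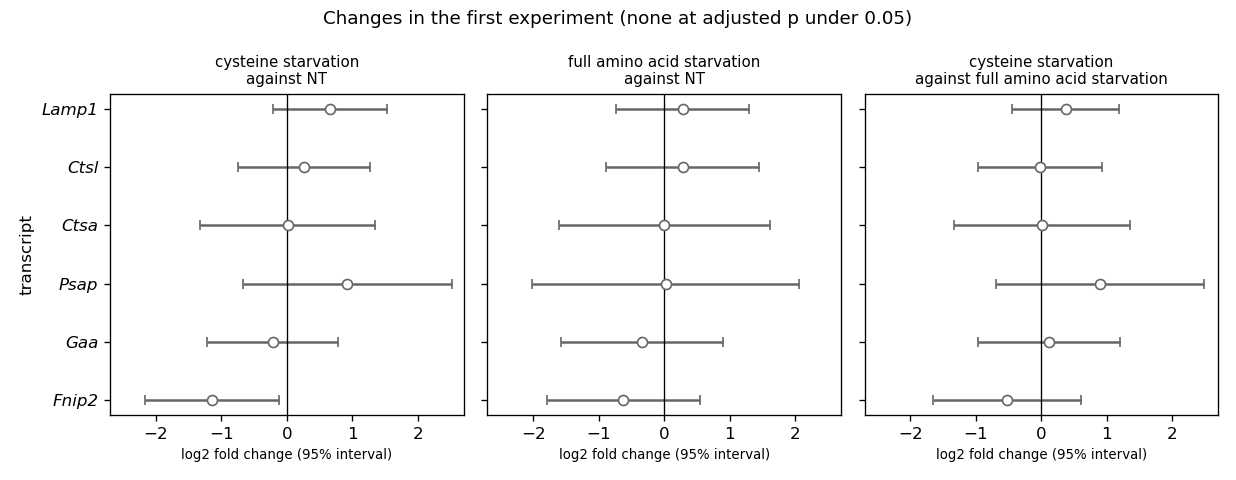
Log2 fold changes of the 6 transcripts in the 3 starvation comparisons, as points with 95% intervals, from 1 to 38 counts in a library. No point is called, and the intervals are wider than in the second experiment.

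Few other genes of the lysosome were among the 1399 transcripts. Of 54 soluble lysosomal proteins 4 were listed, all of them described above, and of 26 lysosomal membrane proteins 1, Lamp1. The proton pump that acidifies the lysosome (V-ATPase) had 2 of 16, the delivery of hydrolases to the lysosome 3 of 25, nutrient sensing at the lysosome 3 of 44 and autophagy 2 of 25. These lists were chosen with earlier results of these data known. In the 3 starvation comparisons and in rescue against knockdown 0 of these genes passed in edgeR, and 0 had an unadjusted p under 0.05.

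Of the V-ATPase genes, Atp6v0a2, a membrane subunit, rose 2.15-fold in CTNS knockdown, with 196 and 201 CPM in the knockdown and 91.1 and 92.0 CPM in NT2 (log2 1.11 ± 0.33, adjusted p = 0.0176). It was 189 ± 12.8 CPM in the rescue (SD, n = 2) and rose there by 1.03 ± 0.34 over NT2 (adjusted p = 0.0296). Atp6v1c1, a subunit of the catalytic part, averaged 184 CPM in the knockdown, 103 CPM with cysteamine and 136 CPM in NT2 and did not pass in any comparison. Of the delivery genes, Igf2r, the mannose 6-phosphate receptor that carries new hydrolases, fell to 214 ± 23.9 CPM with cysteamine, against 417 ± 21.0 CPM in NT2 (-0.95 ± 0.19, adjusted p = 0.0040). The Igf2r libraries held 588 and 511 CPM in the knockdown and 197 and 231 CPM with cysteamine, a difference of 1.35 ± 0.20 (adjusted p = 0.000652). Ap3d1, of the adaptor complex AP-3 (0.12 in knockdown against NT2), and Vps33a, of the tethering complexes on late endosomes (0.65), did not pass in any comparison.

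Of the nutrient sensing genes, Mtor, the kinase of mTORC1, averaged 101 ± 27.1 CPM in the knockdown and 150 ± 34.2 CPM in NT2 (-0.55 ± 0.38, adjusted p = 0.28). Tsc2, an inhibitor of mTORC1, averaged 227 ± 62.6 CPM in the knockdown and 301 ± 28.2 CPM in NT2 (-0.39 ± 0.25, adjusted p = 0.245). Fnip2 was the 1 of these 3 genes called in that comparison, in which 30.8% of all transcripts were called. Of the autophagy genes, Sqstm1, the cargo receptor p62, rose in the knockdown (log2 2.24), the rescue (1.75) and with cysteamine (1.21) against NT2, and was 1.02 higher in the knockdown than with cysteamine (adjusted p 2.2e-05 to 0.00644). Atg16l1, needed to lipidate LC3, averaged 146 ± 38.6 CPM in the knockdown and 74.6 ± 23.3 CPM in NT2 (0.95 ± 0.44, adjusted p = 0.109).

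Likeness of pattern was measured as the root mean square difference of log2 CPM, each transcript centred on its own mean, over the 8 libraries of the second experiment, among 1120 or 1121 transcripts with a mean count of at least 20 there. The 3 nearest to Ctsl were Myo1c (0.0913), Myof (0.105) and Ruvbl2 (0.131), where the median over all candidates was 0.444. Nearest to Fnip2 were Dnajc8 (0.108), Bdp1 (0.130) and Camsap1 (0.136), with a median of 0.549, and Dnajc8 was itself a tracking transcript. Nearest to Lamp1 were Canx (0.0574), Scaf11 (0.0740) and Scrib (0.104). Nearest to Psap were Syncrip, Cul4b and Ncor1 (0.124 to 0.146). Ctsa and Gaa had 2 of their 3 nearest in common, Arhgap23 and Fam208b, and were also the closest pair of the 6, at 0.152, while Ctsl and Fnip2 were the farthest apart, at 0.70. All of these values come from the same 8 libraries and share their depth and scaling.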

How the data were processed

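For each of 14 libraries the authors deposited unnormalized counts per Ensembl transcript. The tables carry CPM in their names, yet they hold integers that sum to a different total in each library. RNA fragments were selected on a gel at 50 to 100 nucleotides and amplified by PCR, per the labels' protocols, which name no molecular identifiers, so read counts are not counts of independent molecules. STAR 2.7.10a, Bowtie 1.2.3, cutadapt 2.8 and bcl2fastq 2.20.0.422 and the build GRCm39 are named in the submitters' processing notes. How reads were counted, on which strand and over which isoforms, is not given in the sources used here. All tables list the same 1399 transcripts with a lowest count of 1, so totals are not sequencing depths and a fall to 0 cannot be seen. Transcripts were named from GENCODE M21 (1385 of 1399), and promoter windows came from RefSeq on GRCm38.p6.

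All libraries were fitted with 7 group means (7 residual degrees of freedom) in edgeR 4.0.16 (R 4.3.3) with TMM scaling, the quasi-likelihood test and Benjamini-Hochberg adjustment over 1399 transcripts at 0.05, two-sided. The SE was taken from the fitted model, and its 95% interval can differ from the test near the threshold. The spread is pooled over both experiments. Between the libraries of a group, chi-square over its degrees of freedom was 2.54 to 4.55 in the first and 1.55 to 1.95 in the second, where counting noise alone gives about 1. Log2 CPM for likeness used a prior count of 2. The procedure was tested on simulated data.

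The members, the gene lists and the tests were chosen with earlier results of these data known. Genes named were all 6 members, listed genes that passed or whose list had 4 or fewer listed genes, and the 3 nearest transcripts to each member. Alternatives were DESeq2 1.42.0 and its size factors, a minimum mean count of 20, a fit without the tracking transcripts, a fit of 1 experiment alone, a replicate block, both untreated groups as control and leaving out each library. Library totals as the only scaling and ratios to Lamp1 were chosen after seeing the data.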

Additional observations from a re-analysis of the deposited data

How the results depend on the processing

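Of 542 values of the 6 genes under alternatives, 483 kept their direction or their place within the spread and their side of the threshold, 26 lost a call, 6 gained one, 26 moved and 1 reversed. The 1 reversal was Lamp1 in cysteamine against NT2, at 0.74 (adjusted p = 0.0354) with both untreated groups as control. That control mixes groups that stood far apart. Among uncalled values 90 changed sign. The causes were not tested.

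Calls among all transcripts moved as follows. Cysteine starvation against NT gave 0 calls, 2 with DESeq2's size factors, 31 with library totals, 60 with DESeq2, 8 with both untreated groups and 0 to 112 with 1 library left out. Full amino acid starvation against NT gave 0, 249 with both untreated groups and 0 to 20 with 1 library left out. Cysteine against full amino acid starvation gave 210, 548 with library totals, 117 with a mean count of 20, 17 without tracking transcripts, 87 in 1 experiment alone and 18 to 193 with 1 library left out. Cysteamine against NT2 gave 147, 93 with library totals, 324 without tracking transcripts, 375 in 1 experiment alone, 249 with both untreated groups and 15 to 32 with 1 library left out. CTNS knockdown against NT2 gave 431, 128 with both untreated groups and 191 to 237 with 1 library left out. CTNS rescue against knockdown gave 9, 2 with library totals, 35 without tracking transcripts, 58 in 1 experiment alone, 14 with DESeq2 and 1 to 4 with 1 library left out. CTNS rescue against NT2 gave 441, 283 without tracking transcripts, 107 with both untreated groups and 257 to 287 with 1 library left out. CTNS knockdown against cysteamine gave 346, 529 in 1 experiment alone and 67 to 127 with 1 library left out.

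Calls among the 6 genes moved too. Cysteine against full amino acid starvation gave 2 in place of 0 with library totals, and cysteamine against NT2 gave 1 in place of 0 with both untreated groups. CTNS knockdown against NT2 gave 2, but 1 with library totals and in 1 experiment alone, 0 with a mean count of 20, with DESeq2 and with both untreated groups, and 0 to 1 with 1 library left out. CTNS rescue against NT2 gave 1, but 2 in 1 experiment alone and 0 with library totals, with a mean count of 20, without tracking transcripts, with both untreated groups and with any 1 library left out. Fnip2 was outside the fits with a mean count of 20 and without tracking transcripts. CTNS knockdown against cysteamine gave 1, but 2 without tracking transcripts, 0 with library totals and DESeq2, and 0 to 1 with 1 library left out. With a mean count of 20, Ctsl had an adjusted p of 0.0510 in knockdown against NT2.

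Library totals as the only scaling moved the median of all transcripts by 0.68 (cysteine starvation against NT), -0.36 (full amino acid starvation against NT), -0.33 (rescue against NT2), -0.17 (knockdown against NT2), -0.15 (cysteamine against NT2) and -0.15 (rescue against knockdown). A lone library left in a group was assumed to vary like the other groups. The replicate numbers were not taken to pair the libraries, since not every pair of groups had a correlation of deviations over 0.1: 6 of 9 did. The first experiment gave correlations of -0.21 to 0.29 and the second 0.092 to 0.281, where only cysteamine with NT2 was at or under 0.1. With the replicate number as a block, cysteine starvation against NT gave 6 calls in place of 0, and no call of the 6 genes changed. In the starvation comparisons the 6 genes had only 1 to 38 counts in a library, which limits their precision.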
